A study of Bos taurus with 40 samples.

Results

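The insulin-like growth factor (IGF) system was described here through 10 genes chosen by symbol: the ligands IGF1 and IGF2, the receptor IGF1R, the acid-labile subunit IGFALS, and the binding proteins IGFBP1 to IGFBP6. All 10 were among the 13570 genes of the count tables and among the 13148 genes with a read in at least 1 sample. RNA-seq was performed on 4 tissues, namely liver, abdominal (visceral) fat, the longissimus dorsi muscle and the pituitary, of 5 cows and 5 bulls of Korean cattle, slaughtered at over 22 months of age, so that each of the 8 groups held 5 animals and the 40 samples came from 10 animals. The labels name no treatment, the reproductive state of the animals is not given in the sources used here, and the study set out to find genes that differ between the sexes in metabolic tissues. Cow 1 to cow 5 and bull 1 to bull 5 are names only, and the ear tag in the labels joins the 4 tissues of an animal.

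IGF1 and IGF2 are small secreted hormones that signal mainly through IGF1R, a receptor tyrosine kinase at the cell surface. Growth hormone from the pituitary gland acts on the liver, where it raises IGF1 and IGFALS, and most circulating IGF travels in a complex with IGFBP3 or IGFBP5 and the acid-labile subunit. The binding proteins hold the ligands, prolong their life in blood or limit their access to the receptor, and IGFBP1 in particular is a hepatic protein that insulin suppresses and fasting raises.

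The samples held 5173092 to 19165864 reads on named genes, with a median of 10005607. Levels are given as CPM, the reads of a gene per 1e+06 reads of its sample, scaled by TMM factors, and 3 reads, the floor used here, equalled 0.132 to 0.793 CPM depending on the sample. Every liver, fat, muscle and pituitary marker with values (7, 5, 6 and 7 genes) was higher in each sample of its own tissue than in any sample of another tissue. The liver library labelled bull 3 went against its label: it had 1400.8 CPM of XIST, the RNA of the inactive X chromosome, and 0 reads of the Y-linked USP9Y, whereas the liver samples of the other bulls had 45.9 to 73.6 CPM of USP9Y. It lay closest to the liver sample of cow 4 (r = 0.993 over genes), and its levels of the 10 genes were 0.618 to 1.21 times those of cow 4. The pair differed by more than sampling noise, but less than other liver pairs. The chi-square of the counts per degree of freedom was 15.8 for this pair and 45.8 to 236 for the others. The fat sample of bull 5 stood apart in another way, with 1.78 CPM of USP9Y against 28.1 to 34.1 CPM in the other bulls. Its XIST was low too, at 1.39 CPM against 316 to 981 CPM in the fat of cows. The calls between tissues were the same without either library, with 8, 10, 10, 7, 9 and 5 members called in the order of comparisons given next, and the values of cows against bulls in liver and fat that lean on either library are given with and without it.

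The first comparison asked how the IGF genes are distributed over the tissues. Liver held the highest mean level of 6 of the 10 genes (IGF1, IGF2, IGFALS, IGFBP1, IGFBP2 and IGFBP4), fat that of IGFBP3 and IGFBP6, and pituitary gland that of IGF1R and IGFBP5. With sex and tissue in 1 model, a gene was called between a pair of tissues at an edgeR LRT adjusted p under 0.05 and a log2 fold change of at least 1 in size. On this rule 8 members were called between liver and fat, where 47.6% of all tested genes were called. All 10 were called between liver and muscle (46.5% of all genes) and between liver and pituitary gland (48.4%). Between fat and muscle 7 members were called (43.3% of all genes), between fat and pituitary gland 9 (47.2%), and between muscle and pituitary gland 5 (48.1%). The median log2 fold change of the 10 members was -2.96 for muscle over liver and -3.41 for pituitary gland over liver, while the medians of all genes were 0.105 and 0.117.

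**Figure D1:**
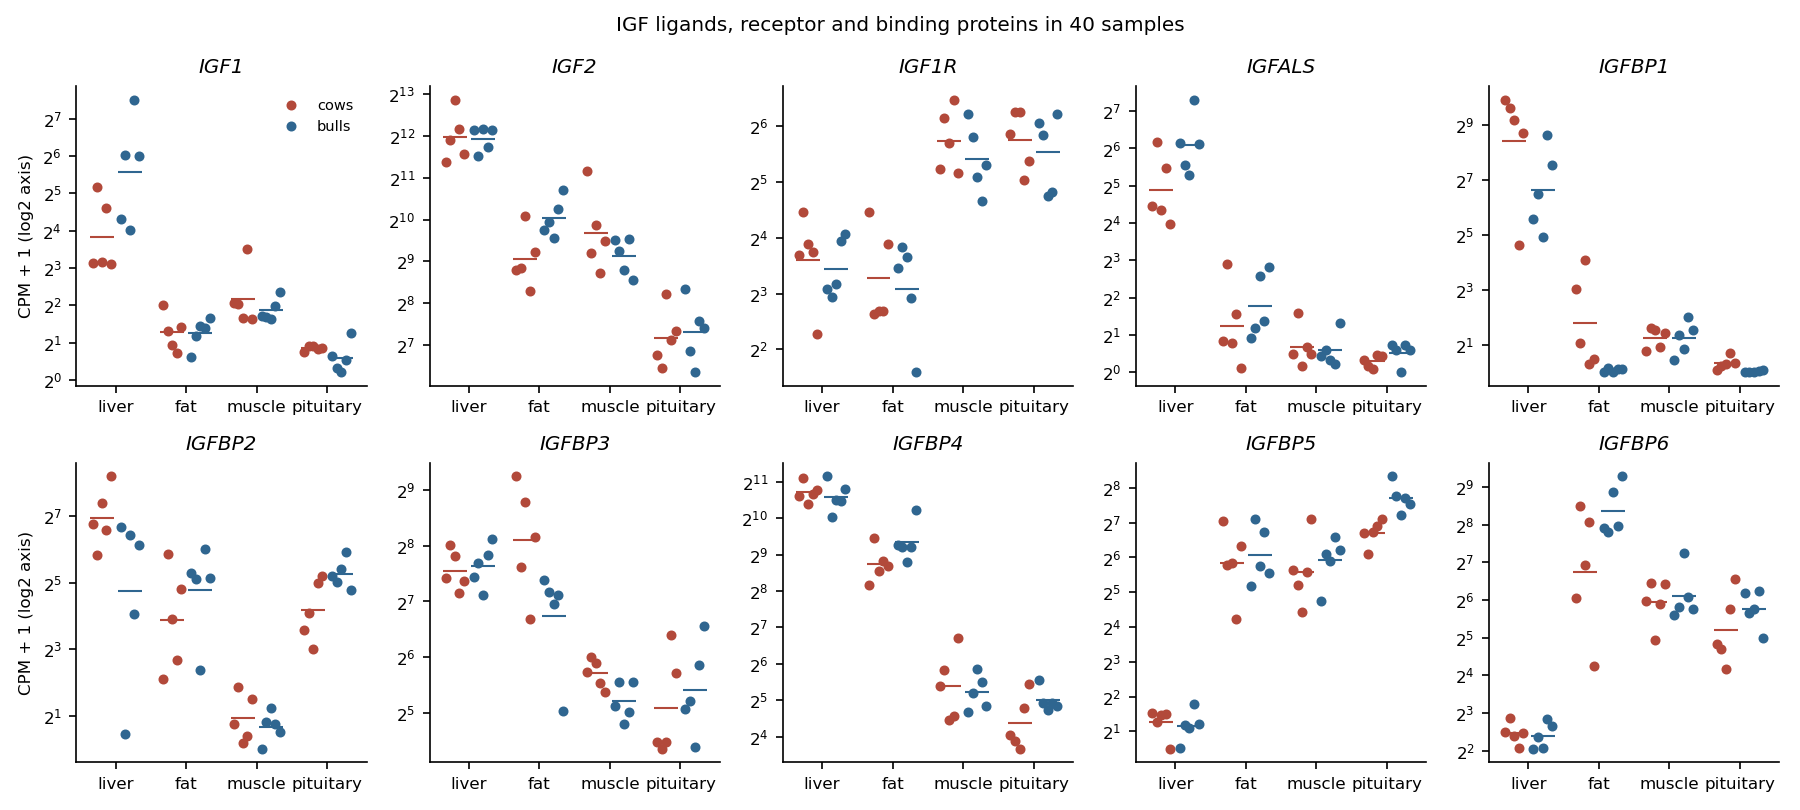
TMM-scaled CPM plus 1 (log2 axis) of the 10 IGF genes by tissue, with cows in red and bulls in blue (5 samples each, in animal order from left to right) and a line at the mean of the log2 values. Every liver sample of IGFALS and IGFBP1 lies above every sample of the other tissues, IGF1 in liver (from 7.66 CPM) overlaps muscle (up to 10.3 CPM), and IGFBP5 and IGFBP6 are lowest in liver.

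Among the ligands, IGF1 was mainly a liver transcript. It had 7.66 to 181 CPM in liver (median 21.2), 2.10 to 10.3 in muscle (median 2.62), 0.543 to 3.04 in fat (median 1.55) and 0.153 to 1.37 in pituitary gland (median 0.737). Each step in the order liver, muscle, fat, pituitary gland passed the test, with log2 fold changes of 3.52 (SE 0.439, edgeR LRT adjusted p = 4.69e-12), 1.21 (SE 0.450, adjusted p = 0.0140) and 1.12 (SE 0.462, adjusted p = 0.0241), although neighbouring tissues overlapped. The last 2 steps were not firm. Muscle over fat was no longer called without cow 4 (0.728, adjusted p = 0.165) or bull 5 (1.06, adjusted p = 0.0506), and fat over pituitary gland was lost without cow 1, bull 2 or bull 3 (adjusted p = 0.0769, 0.0519 and 0.0573). IGF2, the ligand best known from fetal growth, had 2684 to 7506 CPM in liver (median 4183), 312 to 1681 in fat (median 809), 373 to 2306 in muscle (median 662) and 80.3 to 323 in pituitary gland (median 149). Liver exceeded fat by 2.32 on the log2 scale (SE 0.302, adjusted p = 1.86e-12) and muscle exceeded pituitary gland by 2.25 (SE 0.302, adjusted p = 6.86e-12), in both cases with no overlap between samples. Fat and muscle could not be ordered (log2 difference 0.083, SE 0.302, adjusted p = 0.841).

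IGF1R was higher in pituitary gland and muscle than in liver and fat, with 26.0 to 75.2 CPM in pituitary gland (median 56.5), 24.3 to 87.8 in muscle (median 44.7), 3.83 to 21.0 in liver (median 12.1) and 2.01 to 21.1 in fat (median 8.26). Every muscle sample lay above every liver sample (log2 fold change 2.12, SE 0.301, edgeR LRT adjusted p = 4.12e-11). Neither pituitary gland and muscle (0.072, SE 0.297) nor liver and fat (0.287, SE 0.302) passed the test, so these form a high and a low pair. In bulk tissue, fewer cells of a type and less RNA per cell cannot be told apart, and this holds for every level given here.

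IGFALS, which locks IGF and IGFBP3 into the circulating ternary complex, had 14.6 to 158 CPM in liver (median 44.7) and at most 6.50 CPM in any sample of the other tissues. Liver exceeded fat by 4.40 on the log2 scale (SE 0.473, edgeR LRT adjusted p = 2.38e-15) and fat exceeded muscle by 1.81 (SE 0.517, adjusted p = 0.00105). Muscle and pituitary gland, at medians of 0.404 and 0.366 CPM, were near the level of a few reads.

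IGFBP1 was the most restricted of the binding proteins, since 98.8% of the sum of its 4 tissue means lay in liver. Its levels were 23.9 to 960 CPM in liver (median 289), 0 to 16.1 in fat (median 0.171), 0.347 to 2.98 in muscle (median 1.64) and 0 to 0.624 in pituitary gland (median 0.0642). The fitted difference between liver and fat was 7.93 on the log2 scale (SE 0.682, edgeR LRT adjusted p = 4.38e-17). The mean was higher in fat than in muscle (2.51 against 1.49 CPM), but the fitted difference was -0.76 (SE 0.697) and did not pass, and the fat mean rested on 2 cows. Muscle over pituitary gland passed at 4.27 (SE 0.792, adjusted p = 7.55e-07).

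IGFBP2, a binding protein of liver and of the developing body, had 0.358 to 293 CPM in liver (median 90.4), 7.03 to 59.1 in pituitary gland (median 31.0), 3.30 to 63.2 in fat (median 30.2) and 0 to 2.59 in muscle (median 0.676). The lowest liver value belonged to bull 2, whose 0.358 CPM came from 2 reads while the other livers had 15.8 CPM or more. Liver exceeded pituitary gland by 1.71 (SE 0.543, edgeR LRT adjusted p = 0.00571), and every fat sample lay above every muscle sample (5.01, SE 0.574, adjusted p = 2.52e-13). IGFBP4, which mainly restrains IGF action, had 1036 to 2273 CPM in liver (median 1587), 283 to 1192 in fat (median 518), 21.2 to 104 in muscle (median 38.6) and 11.7 to 46.5 in pituitary gland (median 27.2). Its largest step was that from fat to muscle, at 3.67 on the log2 scale (SE 0.263, adjusted p = 2.54e-34), with no overlap. Muscle and pituitary gland differed by 0.72 (SE 0.264, adjusted p = 0.0123), which was under the fold limit.

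IGFBP3, the main carrier of IGF in blood, was shared by fat and liver. It had 31.8 to 611 CPM in fat (median 155), 137 to 279 in liver (median 189), 26.7 to 63.2 in muscle (median 45.5) and 19.4 to 93.8 in pituitary gland (median 34.2). Fat and liver differed by 0.081 (SE 0.316, edgeR LRT adjusted p = 0.852) and muscle and pituitary gland by 0.025 in favour of the pituitary gland (SE 0.317, adjusted p = 0.964), whereas every liver sample exceeded every muscle sample (2.2, SE 0.317, adjusted p = 1.27e-10).

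IGFBP5 and IGFBP6 were lowest in liver. IGFBP5, which binds to extracellular matrix as well as to IGF, had 67.9 to 323 CPM in pituitary gland (median 142), 17.8 to 137 in fat (median 55.1), 20.4 to 137 in muscle (median 54.2) and 0.410 to 2.42 in liver (median 1.38). Pituitary gland exceeded fat by 1.12 (SE 0.313, edgeR LRT adjusted p = 0.000944), which fell to 0.878, under the fold limit, without bull 1 (adjusted p = 0.00717). Each of the 3 other tissues exceeded liver in every sample (muscle over liver 5.42, SE 0.341, adjusted p = 8.31e-43). IGFBP6, which prefers IGF2 as its ligand, had 17.9 to 624 CPM in fat (median 244), 29.7 to 150 in muscle (median 60.2), 17.0 to 92.5 in pituitary gland (median 51.5) and 3.15 to 6.33 in liver (median 4.37). Fat exceeded muscle by 1.86 (SE 0.338, adjusted p = 4.13e-07) and every sample of pituitary gland lay above every liver sample (3.43, SE 0.345, adjusted p = 4.44e-19).

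By their chromosomal order in the RefSeq table of assembly ARS-UCD2.0, IGFBP1 and IGFBP3 are neighbours on chromosome 4, as are IGFBP2 and IGFBP5 on chromosome 2, and the neighbours of each pair were distributed differently over the tissues. IGFBP1 was concentrated in liver, whereas the difference of IGFBP3 between fat and liver did not pass the test. IGFBP2 was highest in liver, where IGFBP5 was lowest.

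The second comparison asked whether cows and bulls differ within a tissue, with sex as the sole term of the model. Of the 10 IGF genes, 1 was called in fat (IGFBP1, higher in cows) and 1 in pituitary gland (IGFBP5, higher in bulls), and none was called in liver or muscle by the edgeR LRT. In fat 0.114% of all tested genes were called, in pituitary gland 0.745%, in liver 0.175% and in muscle 0.517%. At an unadjusted p under 0.05, 3 members passed in each of liver, pituitary gland and fat, and 0 in muscle, where 7.45%, 9.27%, 6.88% and 11% of all genes passed. The quasi-likelihood test of edgeR called 0 members in all 4 tissues, and of all genes it called 0.00761%, 0.0228%, 0.0532% and 0.0913% (liver, fat, muscle, pituitary). DESeq2 called 0, 1, 0 and 1 members in the same order, with 0.152%, 0.213%, 0.677% and 1.03% of all genes called. The median log2 fold change (bulls over cows) of the 10 members was -0.08 for liver, 0.34 for fat, -0.33 for muscle and 0.32 for the pituitary, beside -0.058 to 0 for all genes.

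**Figure D2:**
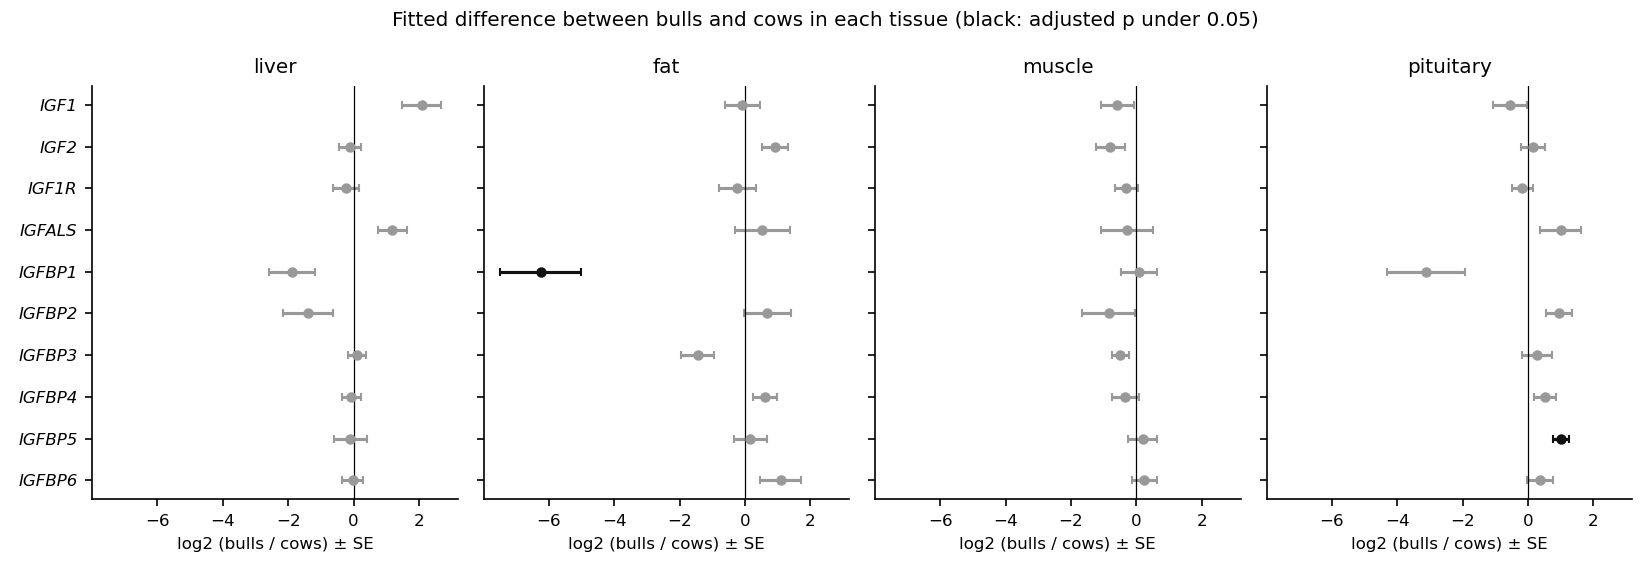
Fitted log2 ratio of bulls to cows with its standard error for the 10 IGF genes in each tissue (5 cows and 5 bulls), in black where the edgeR LRT adjusted p was under 0.05. IGFBP1 in fat (-6.24) and IGFBP5 in pituitary gland (1.02) are the called ones, and IGF1 in liver lies at 2.08.

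IGFBP1 was higher in fat of cows than of bulls. The cows had 7.05, 1.10, 16.1, 0.232 and 0.394 CPM (cow 1 to cow 5), and the bulls had 0, 0.111, 0, 0.0841 and 0.0773 CPM (bull 1 to bull 5). The sexes did not overlap, as in 1.29% of all genes in fat, but cow 1 and cow 3 carried most of the signal. The cows had 4 to 196 reads and no bull had more than 2, so the gap between the sexes lay around the floor of 3 reads. Summed over animals this was 359 reads in cows and 4 in bulls, a ratio of 75.6 after scaling (exact 95% interval 29.3 to 279, counting error only). The log2 fold change was -6.24 (SE 1.24, edgeR LRT adjusted p = 0.00349), and it stayed called without the fat sample of bull 5 (-6.34, adjusted p = 0.0142). The quasi-likelihood test gave an adjusted p of 0.667, and the filterByExpr filter removed the gene before testing.

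Liver is the main site of IGFBP1, so liver RNA in fat samples was examined beside this result. The 7 liver markers, none of which was at 0 in all fat samples of a sex, summed to 23.2, 89.7, 26.2, 45.7 and 167 CPM in the fat of cow 1 to cow 5, and to 23.1, 56.6, 26.0, 37.0 and 152 CPM in that of bull 1 to bull 5. The part of liver RNA in the IGFBP1 difference was not tested.

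In liver itself, IGFBP1 was 960, 787, 569, 23.9 and 413 CPM in cow 1 to cow 5, and 46.2, 87.3, 28.8, 393 and 184 CPM in bull 1 to bull 5, where the 28.8 is the library labelled bull 3. Of the cows 4 lay above every bull and cow 4 lay below every bull, so the sexes overlapped. The log2 fold change was -1.87 (SE 0.704, edgeR LRT adjusted p = 0.411) and without the library labelled bull 3 it was -1.63 (SE 0.697, adjusted p = 0.605). Without the liver sample of cow 4 it was -2.18 and passed (adjusted p = 0.0253). In that fit 187 of the 13148 tested genes were called, against 23 with all liver samples. It was the 1 fit that passed of the 10 with an animal left out, whose edgeR LRT adjusted p ranged from 0.0253 to 0.980.

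The other 2 tissues held little IGFBP1. In pituitary gland the cows had 0.0631, 0.177, 0.217, 0.624 and 0.273 CPM and the bulls 0, 0, 0, 0.0441 and 0.0652 CPM, which is 19 reads against 2, and the difference missed the threshold (log2 fold change -3.11, SE 1.19, edgeR LRT adjusted p = 0.0573). The sexes overlapped between cow 1 and bull 5, and a ratio of 10.7 had a counting interval of 2.58 to 94.6. In muscle the cows had 0.690, 2.08, 1.90, 0.887 and 1.71 CPM and the bulls 0.347, 1.57, 0.793, 2.98 and 1.93 CPM, with a log2 fold change of 0.09 (SE 0.552).

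**Figure D3:**
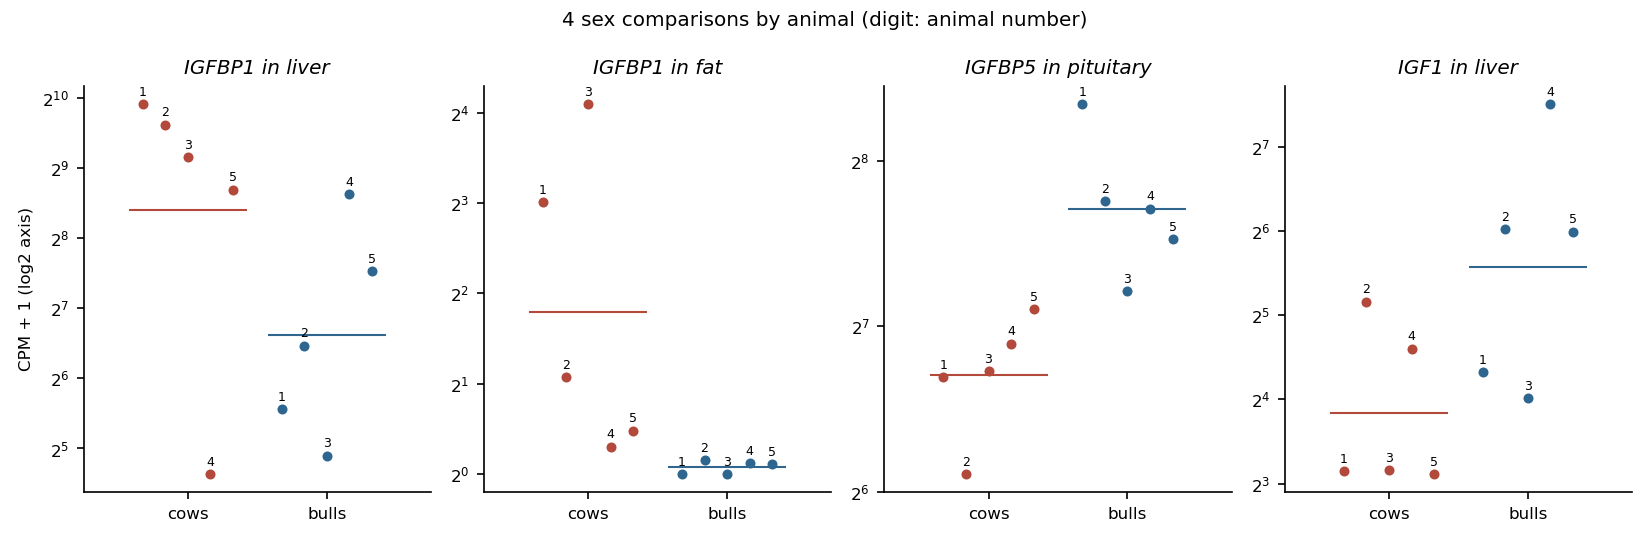
TMM-scaled CPM plus 1 (log2 axis, different range in each panel) by animal for IGFBP1 in liver and fat, IGFBP5 in pituitary gland and IGF1 in liver; digits are animal numbers and lines are means of the log2 values. The sexes separate for IGFBP1 in fat and IGFBP5 in pituitary gland, whereas cow 4 lies below every bull for IGFBP1 in liver.

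IGFBP5 was higher in the pituitary gland of bulls. The cows had 102, 67.9, 105, 118 and 136 CPM and the bulls 323, 215, 147, 208 and 183 CPM. The sexes did not overlap (as in 1.34% of all genes in pituitary gland), and the gap lay between cow 5 at 136 and bull 3 at 147 CPM. The log2 fold change was 1.02 (SE 0.239, edgeR LRT adjusted p = 0.00827). With each animal left out in turn it remained called, with adjusted p of 0.00249 to 0.0499, but the quasi-likelihood test did not call it (adjusted p = 0.154).

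Some marker genes differed between the sexes in the same pituitary samples. The fibroblast list (COL1A1, COL1A2, DCN, LUM and PDGFRA) summed to 396 to 581 CPM in cows and 573 to 1301 CPM in bulls, and 1 of its 5 genes, COL1A1, passed (1.39, SE 0.366, edgeR LRT adjusted p = 0.0345). Bull 5 held the highest sum, against 573 to 643 CPM in the other bulls, and its COL1A1 was 389 CPM against 91.7 to 153 CPM in the other bulls. The posterior lobe hormones AVP and OXT together reached 0.0725 to 0.624 CPM in cows and 1.15 to 1.83 CPM in bulls, with AVP called (2.49, SE 0.591, adjusted p = 0.00320) and OXT not (adjusted p = 0.249). These were low counts, with AVP at 1 to 4 reads per cow, around the floor of 3 reads, and 8 to 28 reads per bull. In muscle of bulls the 2 hormones summed to as much as 13.8 CPM. The 6 muscle markers summed to 10.2 to 30.3 CPM in cows and 21.4 to 75.1 CPM in bulls, and 2 of them, MYH7 and MYH2, were called (1.18 and 2.34, adjusted p = 0.00837 and 0.0101). The 3 leukocyte markers (PTPRC, CD3E and CD14) summed to 22.5 to 31.7 CPM in cows and 10.5 to 45.9 CPM in bulls, and 0 of the 3 were called. Reads outside annotated genes made up a median of 46.7% in cows and 36.2% in bulls. Of the 7 pituitary markers 1 was called, CGA, the shared alpha subunit of the glycoprotein hormones, higher in bulls (1.84, SE 0.437, adjusted p = 0.0125). The sexes overlapped for CGA, with 1339 to 3053 CPM in cows and 1465 CPM in bull 5. POU1F1, of the same list, was fitted lower in bulls and not called (-0.79, SE 0.266, edgeR LRT adjusted p = 0.163). The part of these markers and reads in the IGFBP5 difference was not tested.

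The call for IGF1 in liver depended on the library labelled bull 3. The cows had 7.83, 34.8, 7.94, 23.3 and 7.66 CPM and the bulls 19, 64.1, 15.1, 181 and 62.7 CPM, the 15.1 being the library labelled bull 3. Bull 2, bull 4 and bull 5 lay above all cows, while bull 1 and the library labelled bull 3 lay between cow 1 and cow 4. With all samples the log2 fold change was 2.08 (SE 0.591, edgeR LRT adjusted p = 0.144). Over the 10 fits with an animal left out it was 1.34 to 2.53 (edgeR LRT adjusted p = 0.0185 to 0.629), and 1 of them passed. Without the library labelled bull 3, when 0.464% of all genes were called, it was 2.33 (SE 0.564, adjusted p = 0.0185) and IGF1 was the 1 member called, although the quasi-likelihood test on these 9 samples gave an adjusted p of 0.228.

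IGFALS in liver was 21.0, 71.7, 19.6, 43.5 and 14.6 CPM in the cows and 70.5, 45.8, 38.2, 158 and 68.8 CPM in the bulls. The sexes overlapped through cow 2 and cow 4, and the log2 fold change of 1.18 (SE 0.447) did not pass (edgeR LRT adjusted p = 0.396). Without the library labelled bull 3 it was 1.34 (SE 0.458, adjusted p = 0.251), and cow 2 was then the 1 cow inside the range of the bulls. No member separated the sexes in liver, where 0.548% of all genes did, or in muscle, where 1.65% did.

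The remaining genes that passed at an unadjusted p under 0.05, but not after adjustment, were IGF2 and IGFBP3 in fat and IGFBP2 in pituitary gland. IGF2 in fat was 446, 461, 1082, 312 and 593 CPM in cows and 865, 979, 752, 1227 and 1681 CPM in bulls, so that all cows but cow 3 lay below all bulls (0.91, SE 0.398, edgeR LRT adjusted p = 0.632). Without bull 5 the difference was 0.71 (SE 0.397, adjusted p = 0.658), which no longer passed at the unadjusted threshold. IGFBP3 in fat was 611, 197, 442, 102 and 287 CPM in cows and 167, 143, 123, 138 and 31.8 CPM in bulls, where cow 4 lay below all bulls except bull 5 (-1.44, SE 0.506, adjusted p = 0.435, and -1.20, SE 0.446, adjusted p = 0.428 without bull 5). IGFBP2 in pituitary gland was 11, 16, 7.03, 30.5 and 35.7 CPM in cows and 35.3, 31.5, 41.2, 59.1 and 26.5 CPM in bulls, with cow 4 and cow 5 inside the range of the bulls (0.94, SE 0.389, adjusted p = 0.367).

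For the receptor the difference between the sexes was smaller than its standard error in each tissue. IGF1R had means of 12.6 and 10.4 CPM in liver of cows and bulls, 10.2 and 8.65 in fat, 55.8 and 44.8 in muscle, and 55.9 and 49.5 in pituitary gland. Its log2 fold changes were -0.18 to -0.32, with standard errors of 0.319 to 0.557. IGFBP4 and IGFBP6 did not pass in any tissue either, and IGFBP5 did not pass in liver, fat or muscle.

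With sex and tissue in 1 model over the 40 samples, IGFBP1 was again the 1 member called, while 1.69% of all genes were called. Its log2 fold change was -2.45 (SE 0.516, edgeR LRT adjusted p = 0.00822), and -2.38 without the library labelled bull 3 (adjusted p = 0.0163). This model treats the 4 tissues of an animal as independent samples. With the animal as a block in limma voom it was -1.96 (SE 0.560, adjusted p = 0.239), and the 8 genes then called held no member. Leaving out bull 1 or bull 3 also ended the call (adjusted p = 0.0674 and 0.0542).

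Whether the difference between the sexes itself varied with tissue was asked with a sex by tissue interaction, for which 0.335% of all genes and 1 member, IGFBP1, were called (edgeR LRT adjusted p = 0.0144). The log2 fold changes of IGFBP1 were -6.24 in fat, -3.11 in pituitary gland, -1.87 in liver and 0.09 in muscle. The call was lost in the quasi-likelihood test (adjusted p = 0.367) and with the animal as a block in voom (adjusted p = 0.525). IGF1, whose fitted difference was positive in liver and negative in the 3 other tissues, had an adjusted p of 0.156, so a difference between tissues was not established for it.

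The third comparison followed animals across tissues, in a family of 9 relations along the growth hormone axis (permutation p, two-sided, log2(CPM + 1), Benjamini-Hochberg over the 9). Liver IGF1 and liver IGFALS rose together over the 10 animals (r = 0.888, permutation p = 0.00045, adjusted p = 0.00405; rho = 0.842, p = 0.0037, adjusted p = 0.0333). Without the 2 animals farthest from the median of IGF1, r was 0.886. Without bull 3 it was 0.891 (adjusted permutation p = 0.0162; rho = 0.783, adjusted p = 0.0774). With each sex centred on its mean it was 0.818 (adjusted permutation p = 0.0374; rho = 0.697, adjusted p = 0.241), falling to 0.551 without the 2 farthest animals, so within the sexes the relation rested in part on those animals.

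**Figure D4:**
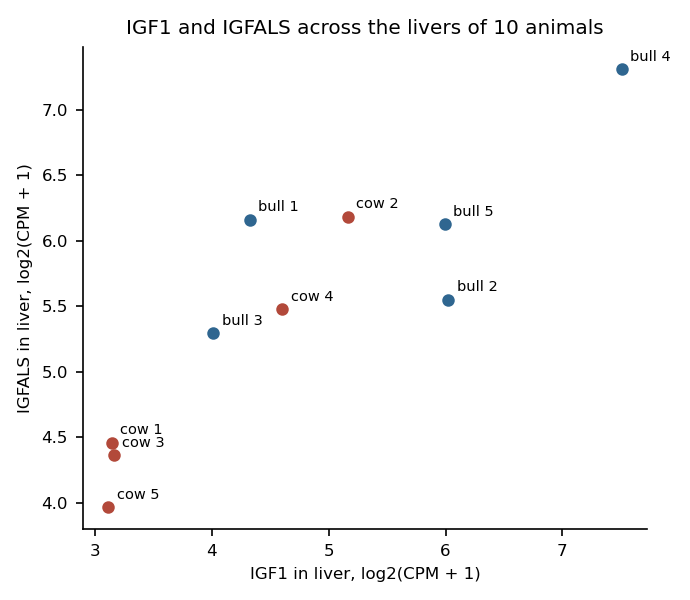
Liver levels of IGF1 and IGFALS, as log2(CPM + 1), in the 10 animals (cows red, bulls blue). Cow 1, cow 3 and cow 5 are lowest in both genes and bull 4 is highest in both (181 and 158 CPM).

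The other 8 relations did not pass after adjustment. Liver GHR, the growth hormone receptor, and liver IGF1 had r = 0.693 (permutation p = 0.0242, adjusted p = 0.109; rho = 0.745, adjusted p = 0.0555), and r was 0.799 without the 2 farthest animals. With each sex centred on its mean, r for GHR with IGF1 was 0.508 (permutation p = 0.127, adjusted p = 0.261). IGFBP1 in liver and IGFBP1 in fat had r = 0.618 (permutation p = 0.0469, adjusted p = 0.141; rho = 0.742, adjusted p = 0.0555). Centred on the mean of each sex, r was 0.467 (adjusted permutation p = 0.261), and 0.186 without the 2 farthest animals. Without bull 3, uncentred, r for this pair was 0.594 (adjusted permutation p = 0.230). Pituitary GH1, which encodes growth hormone, was not closely related to liver IGF1 (r = 0.288, permutation p = 0.419, adjusted p = 0.539; rho = 0.236), and r was -0.143 without the 2 farthest animals. For GH1 with liver IGFBP1, r was -0.579 (permutation p = 0.0821, adjusted p = 0.185; rho = -0.709, adjusted p = 0.0594).

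Among the binding proteins, IGFBP2, IGFBP4 and IGFBP6 varied together between animals in pituitary gland and in muscle. In pituitary gland r was 0.911 for IGFBP4 with IGFBP6, 0.891 for IGFBP2 with IGFBP6 and 0.829 for IGFBP2 with IGFBP4. In muscle the same pairs had r of 0.748, 0.751 and 0.874, although IGFBP2 was near the floor there, with 0 to 30 reads per sample and a median of 0.676 CPM. In fat r was 0.663, 0.138 and 0.669, and in liver 0.080, -0.165 and 0.602. These pairs were picked from all pairs of members after their values were seen, they share library and depth, and they are given as a description over 10 samples per tissue.

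The rest of the pathway was followed by lists of GH axis genes (12 of 14 tested), receptors and signalling proteins (15 of 26), IGFBP proteases and their inhibitors (5 of 8) and related proteins (6 of 6). Of all tested genes, 0.114% to 0.745% were called within single tissues, 1.69% over the 4 tissues and 0.335% for the interaction. Within single tissues 1 gene was called, INSRR, a receptor related to the insulin receptor, in pituitary gland (2.87 ± 1.78 CPM in cows and 0.575 ± 0.337 CPM in bulls, SD, n = 5; log2 fold change -2.26, SE 0.517, edgeR LRT adjusted p = 0.00586). Over the 4 tissues 1 gene was called, STAT5A, a transcription factor downstream of the growth hormone receptor, which was lower in bulls (-0.50, SE 0.137, adjusted p = 0.0311). Its fitted differences were -0.82 in muscle, -0.75 in fat, -0.28 in liver and -0.14 in pituitary gland, none of them called (lowest adjusted p = 0.147, in muscle). STAT5A was not called by the quasi-likelihood test (adjusted p = 0.0612) or with the animal as a block in voom (adjusted p = 0.257). For the interaction 1 gene was called, HTRA1, a secreted protease that can cleave binding proteins (adjusted p = 0.00669). The fitted difference of HTRA1 was -1.28 in muscle (adjusted p = 0.0595) and 0.62 in pituitary gland (adjusted p = 0.0550), neither called by the edgeR LRT. Its interaction call was lost in the quasi-likelihood test (adjusted p = 0.0841) and with the animal as a block in voom (adjusted p = 0.136). INSRR was not called in pituitary gland by the quasi-likelihood test (adjusted p = 0.146). CISH, a feedback inhibitor of the growth hormone receptor, and IGF2BP3, an IGF2 mRNA binding protein, came next over the 4 tissues (0.67, SE 0.209, adjusted p = 0.0656, and 0.96, SE 0.304, adjusted p = 0.0638).

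The levels of these partners set the frame for the IGF genes. GH1 had 6616 to 36810 CPM in pituitary gland and at most 36.2 CPM elsewhere. GHR was highest in liver (158.6 to 517 CPM, median 390), followed by muscle (median 187), fat (median 153) and pituitary gland (median 10.8). IGF2R, which clears IGF2, had medians of 307 CPM in muscle, 170 in liver, 103 in fat and 68.2 in pituitary gland. H19, the noncoding RNA of the imprinted region that holds IGF2, had medians of 1049 CPM in muscle, 132 in fat, 13.5 in pituitary gland and 10.4 in liver, so its order over tissues was not that of IGF2.

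The genes whose levels followed each member most closely over the 40 samples are given as a description, since tissue dominates these correlations. They were SULT1E1 for IGF1 (r = 0.903), CHPT1 for IGF2 (0.942), EIF2C1 for IGF1R (0.935) and ORM1 for IGFALS (0.956). For the binding proteins they were IHH for IGFBP1 (0.947), METTL21B for IGFBP2 (0.841), F11R for IGFBP3 (0.877), LBP for IGFBP4 (0.975), LTBP3 for IGFBP5 (0.943) and CERCAM for IGFBP6 (0.948). After the mean of each tissue and sex was removed, the closest were CAPN8 (0.60), CCNK (0.757), NEU3 (0.854), GPR108 (0.749), SLC25A30 (0.711), IL1R2 (0.706), FZD1 (0.691), AP1M1 (0.753), PLIN1 (0.672) and CLEC3B (0.871) in the same order of members. None of the nearest genes over the 40 samples was also nearest once the tissue and sex means were removed.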

How the data were processed

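The deposited tables hold read counts per gene for each sample. Per the paper and the submitters' notes, the authors trimmed paired-end reads with Trimmomatic, mapped them to bosTau7 with TopHat2 and Bowtie2, and counted them with HTSeq on a UCSC annotation; a strand setting is not given in the sources used here. Poly-A selected libraries were made. Reads outside genes and an unnamed row (0.114 to 2.69% of reads) were left out.

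The 13148 genes with a read in at least 1 sample were tested with edgeR 4.0.16 in R 4.3.3 (TMM, estimateDisp, likelihood ratio test, LRT), first with sex within each tissue, then with sex and tissue, and with their interaction. Benjamini-Hochberg adjustment ran over all tested genes at 0.05, with a log2 fold change limit of 1 between tissues. Fold changes are bulls over cows, with a prior count of 0.125. Alternatives were the edgeR quasi-likelihood test, RLE factors, library sizes alone, filterByExpr, DESeq2 1.42.0, limma 3.58.1 voom, an animal block and samples left out. The ear tag in each title pairs the tissues of an animal, and the voom correlation within an animal was 0.104 for sex and tissue and 0.112 for the interaction. Correlations used 100000 permutations. Intervals cover counting error only. The scripts were tested on simulated data.

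The 10 members were named by the rule, the text names other genes where a list gene passed a test or was nearest in level, and the members and lists were chosen with earlier results of these data known. The fit without the liver samples of both bull 3 and cow 4, and the quasi-likelihood test without that of bull 3, were added after the data were seen. APOB and ADIPOQ, also in the marker lists, had no row under these symbols in the count tables and could not be used.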

Additional observations from a re-analysis of the deposited data

Results flagged for a closer look

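In 8 of the 80 groups of 5 samples (10 genes, 4 tissues, 2 sexes) 1 animal stood apart from the other 4 by Dixon's criterion on log2(CPM + 1); chance alone flags about 1 group in 20. In cows, IGF1 in muscle was 10.3 CPM in cow 4 and 2.10 to 3.17 in the others, IGFBP1 in liver was 23.9 CPM in cow 4 and 413 to 960 in the others, and IGFBP5 in liver was 0.410 CPM in cow 5 and 1.43 to 1.86 in the others. In bulls, IGFALS in pituitary gland was 0 CPM in bull 3 and 0.504 to 0.661 in the others, IGFBP2 in fat was 4.12 CPM in bull 3 and 33.2 to 63.2 in the others, and IGFBP6 in muscle was 150 CPM (149.7) in bull 3 and 47.6 to 66.1 in the others. IGFBP3 in fat was 31.8 CPM in bull 5, the fat sample with little USP9Y, and 123 to 167 in the other bulls. IGFBP4 in pituitary gland was 46.5 CPM in bull 1 and 25.8 to 29.5 in the others.

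The difference of IGFBP1 between cows and bulls differed between tissues by the interaction of sex and tissue (edgeR LRT adjusted p = 0.0144, log2 fold changes from -6.24 in fat to 0.09 in muscle). The call was lost in the quasi-likelihood test (adjusted p = 0.367), with the animal as a block in voom (adjusted p = 0.525), and without cow 1, cow 3 or bull 4 (adjusted p = 0.0757, 0.126 and 0.0789). No cause of these values was tested.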

How the results depend on the processing

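Of the counts of IGF genes called, those between tissues stayed within 1.5 times of their main value in every setting. In liver, 0 members were called, 1 without the library labelled bull 3 (IGF1). It was 2 without both that library and the liver sample of cow 4 (IGF1 and IGFBP1). Of the 13148 tested genes, 23, 61 and 154 were called in the same fits. In fat and in pituitary gland the quasi-likelihood test called 0 in place of 1, and filterByExpr gave 0 in fat because it dropped IGFBP1. The interaction had 0 members by the quasi-likelihood test, which called 0 genes of all (922 at an unadjusted p under 0.05), and 0 with the replicate block (animal) in voom, which also gave 0 in place of 1 for sex over the 4 tissues. With animals left out in turn, members called ranged from 0 to 1 in liver, 1 to 1 in fat, 0 to 0 in muscle, 1 to 2 in pituitary gland, 0 to 2 over the 4 tissues and 0 to 2 for the interaction, while all genes called ranged from 10 to 187, 5 to 22, 25 to 553, 54 to 231, 57 to 714 and 9 to 197. These ranges were 8 to 8 between liver and fat, 10 to 10 for liver with muscle and with pituitary gland, 6 to 8 between fat and muscle, 8 to 9 between fat and pituitary gland and 5 to 6 between muscle and pituitary gland, with IGFBP1 called between fat and muscle without cow 3 (muscle over fat 1.86, adjusted p = 0.0259) and IGFALS between muscle and pituitary gland without bull 4 (pituitary gland over muscle -1.22, 0.0480). The interaction call of IGFBP1 was lost without cow 1, cow 3 or bull 4 (adjusted p = 0.0757, 0.126 and 0.0789). Without cow 4, IGFBP3 joined it (0.0196), without cow 2 IGFALS was called over the 4 tissues (1.30, 0.0226), and without cow 1 or bull 5 IGFBP1 was called in pituitary gland (0.0365 and 0.0457). The animal block changed no call between tissues. Library sizes alone moved the median of all genes by -0.73 to 0.86 (log2) between tissues, and fewer or more members were then called. These were 6 between liver and fat, 9 between liver and pituitary gland, 8 between fat and pituitary gland and 6 between muscle and pituitary gland. Of the 13148 tested genes, 7257 were called between liver and fat (6252 in the main fit) and 7786 between liver and pituitary gland (6363). For fat with pituitary gland this was 6179 (6208), and for muscle with pituitary gland 7421 (6319). IGFBP2 and IGFBP4 then lost the call between liver and fat, IGFBP2 that between liver and pituitary gland, and IGF1 those of fat with muscle and with pituitary gland, while IGFBP5 gained one between fat and muscle and IGF1R one between muscle and pituitary gland. On unscaled CPM the tissue order of means changed for IGF1R, IGFBP3, IGFBP4 and IGFBP6, and liver remained highest for the same count of 6 members. All genes called numbered 23 in liver by the LRT and 1 by the quasi-likelihood test, 15 and 3 in fat, 68 and 7 in muscle, 98 and 12 in pituitary gland, 222 and 77 over the 4 tissues. Where other causes are not given, the cause was not tested. Low counts limit IGFBP1 outside liver, with 4 reads in fat of bulls and 2 in pituitary gland of bulls.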
